A study of Mus musculus with 9 samples.

Results

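The 14-3-3 family of the mouse comprises 7 genes, Ywhab, Ywhae, Ywhag, Ywhah, Ywhaq, Ywhaz and Sfn, which encode the beta, epsilon, gamma, eta, theta, zeta and sigma proteins. The 7 members were selected by gene symbol among the 38674 rows of the expression table, with 1 row for each gene. Ywhaq had been chosen by its difference between knockout and wildtype testes in these same animals, so its values are given as a description, with no test. The question addressed was whether its paralogs differed in the testes where Ywhaq was low.

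14-3-3 proteins are small, acidic adaptor proteins that act as homodimers and heterodimers. They bind phosphorylated serine or threonine motifs in many client proteins and thereby hold a client in the cytoplasm, hide or expose a surface of it, or bring clients together. The paralogs recognize largely the same motifs and can pair with one another. In the testis they are known as partners of kinases, of cell cycle regulators, of actin regulators and of the sperm isoform of protein phosphatase 1.

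RNA was collected from the testes, without the tunica albuginea, of male C57BL/6 mice that were Pfn3+/+ (WT), Pfn3+/- (Het) or Pfn3-/- (KO), with 3 animals per genotype and 9 in all. Pfn3 encodes profilin 3, an actin monomer-binding protein of spermatids, and its coding sequence was deleted in part by CRISPR/Cas9 in every cell, on 1 copy in Het and on both in KO mice. The age of the animals, and which of the deletion lines of the study was used, are not stated in the labels. QuantSeq libraries, whose reads start close to the 3′ ends of polyadenylated RNAs, gave 3375546 to 4287335 reads on genes per animal.

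The unit of all levels is the normalized count, a count of reads on a gene after division by the size factor of its animal, and 3 reads came to 2.58 to 3.71 such units. This floor covers counting error only. Pfn3 itself came to 591.8, 383.0 and 372.7 normalized counts in WT testes, to 136.1, 339.0 and 325.9 in Het testes and to 74.7, 214.8 and 278.8 in KO testes. Its 3′ end lies outside the deleted coding part, so these reads do not check the genotype labels. The summed markers of elongating spermatids (Prm1, Prm2, Tnp1 and Tnp2) ranged from 233300 to 249400 in WT, from 179100 to 214900 in Het and from 123400 to 199700 in KO, and 4 of 4 were detected. The round spermatid sum of 6 markers was 4331 to 4696 in WT, 4004 to 4394 in Het and 2144 to 3773 in KO. The sum of 6 spermatocyte markers was 35190 to 41010 in KO, against 6318, 33860 and 31130 in WT and 9059, 31880 and 42330 in Het. For this sum WT replicate 1 and Het replicate 1 stood apart from the rest. A sum follows its most abundant genes, and which of the markers made this difference was not examined. KO replicate 2 had the lowest elongating (123400) and round spermatid (2144) sums of the 9 animals. Among the KO animals it also had the highest Leydig (2794) and Sertoli cell (5037) sums. Leydig cell, Sertoli cell, spermatogonial, epithelial and epididymal, and blood and macrophage markers overlapped between KO and WT, and 5 of the 10 epithelial and epididymal markers were at 0 in all 9 animals. Of these lists, only the elongating spermatid sum lay below WT in both Het and KO, and the part of these marker levels in the results below was not tested. In bulk testis, fewer cells of a type and less RNA per cell cannot be told apart.

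The sequences of the 7 genes are alike where they encode protein, which bears on how far 3′ reads tell them apart. The 735 coding bases of Ywhaq (245 codons) were 74.0% identical to those of Ywhaz, 73.5% to Ywhab, 69.9% to Sfn, 68.2% to Ywhag, 67.2% to Ywhah and 62.2% to Ywhae. A stretch of 50 bases near the 3′ end of each coding sequence, the length of 1 read, is shown from the GENCODE M21 transcripts to compare the members. Capitals mark the bases that differ from Ywhaq.
Ywhaq: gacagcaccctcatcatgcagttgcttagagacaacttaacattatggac
Ywhaz: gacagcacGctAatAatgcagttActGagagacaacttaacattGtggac
Sfn: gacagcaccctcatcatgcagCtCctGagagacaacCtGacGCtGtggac
Ywhab: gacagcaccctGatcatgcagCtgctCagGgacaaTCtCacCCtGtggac
Ywhah: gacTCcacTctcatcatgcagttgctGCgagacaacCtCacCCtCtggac
Ywhag: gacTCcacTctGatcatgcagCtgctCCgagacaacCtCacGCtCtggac
Ywhae: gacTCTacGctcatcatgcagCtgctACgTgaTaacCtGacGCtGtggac
Ywhaz differed from Ywhaq at 6 of these 50 bases, Sfn at 8, Ywhab and Ywhah at 10, Ywhag at 12 and Ywhae at 14, and 32 bases were identical in all 7 genes. The Ywhaq stretch covers coding bases 637 to 686 and spans 2 exons, so that its first and last bases lie at 21395006 and 21391408 of the minus strand of chromosome 12 (GRCm38).

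No stretch of 50 bases of any member's transcript occurred exactly in another member. In the last 500 bases of each transcript, the region nearest to where QuantSeq reads start, 0 of 451 stretches of 50 bases were shared with any other annotated gene, for each of the 7 genes. Over the whole Ywhaq transcript of 2197 bases, 813 of 2148 stretches (37.8%) also occurred in other genes, among them the pseudogenes Ywhaq-ps2 and Ywhaq-ps3. For Ywhaz the share was 19.9%, for Ywhah 18.6%, for Sfn 15%, for Ywhag 0.461%, and for Ywhae and Ywhab 0. Reads that fall upstream of the last 500 bases of Ywhaq, Ywhaz, Ywhah or Sfn could therefore have been split with such copies, and pseudogenes had been removed from the table by the authors.

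Ywhaq (ENSMUSG00000076432) has 6 exons on chromosome 12 (minus strand, 21390071 to 21417637, GRCm38, as for all coordinates below). Its WT animals had 269.9, 658.9 and 721.3 normalized counts. The Het animals had 37.8, 983.3 and 105.8, and the KO animals 102.2, 112.2 and 110.8. All 3 KO animals lay below all 3 WT animals and within a narrow band, while the Het animals held both the lowest and the highest value of the 9.

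Mean ± SD (n = 3 animals) of Ywhaq came to 550 ± 244.6 normalized counts for WT, 375.7 ± 527.4 for Het and 108.4 ± 5.42 for KO. On the log2(normalized count + 1) scale, on which changes of weakly counted genes look smaller than they are, the difference was -2.21 in KO against WT, -1.66 in Het against WT and -0.55 in KO against Het. By size alone, the difference in KO against WT was as large as or larger than that of 97.9% of the 14223 rows compared. Ywhaq had been chosen for this difference, so a high rank was to be foreseen and is no evidence. The difference in KO against WT stayed between -2.66 and -1.95 when each of the 6 animals was left out in turn. The Het values rested on 1 animal, since without Het replicate 2 the difference was -2.97 in Het against WT and 0.76 in KO against Het, which reverses the direction of the latter. The Het values also differed between means of log2 values and tests on recovered reads, at -0.53 by edgeR and -0.54 by DESeq2 in Het against WT and at -1.76 and -1.79 in KO against Het, so that which gap was larger depended on the method. In KO against WT edgeR and DESeq2 both gave -2.32, on the same animals by which Ywhaq had been chosen.

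**Figure D1:**
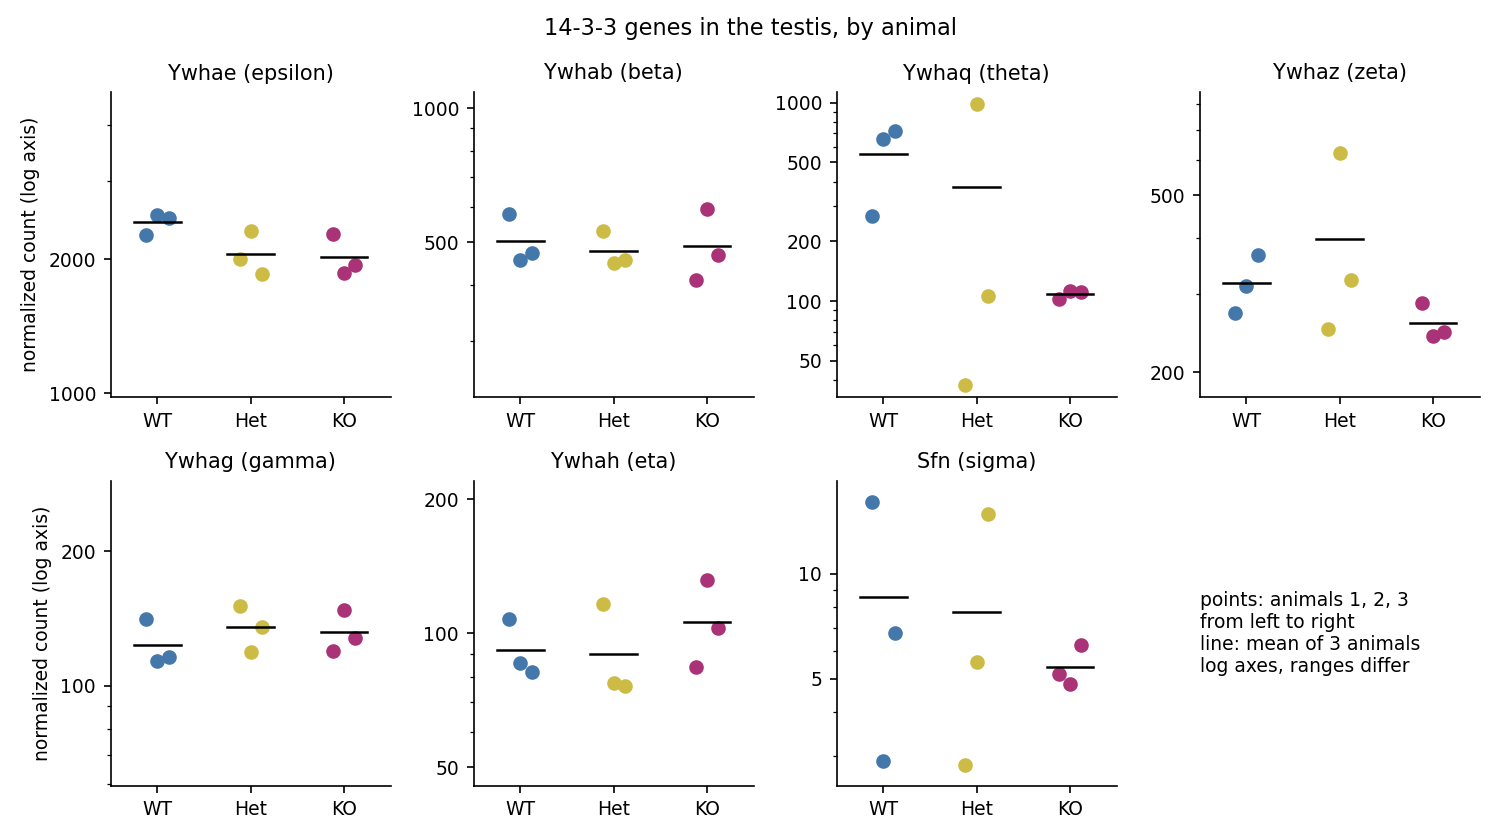
Normalized counts (log axes whose ranges differ) of the 7 genes in each of the 9 animals, with points for animals 1 to 3 of each genotype from left to right and a line at the mean of 3. Ywhaq sits between 102.2 and 112.2 in the KO animals, below the WT range of 269.9 to 721.3, whereas the KO and WT points of each of the other 6 genes overlap.

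The spread of Ywhaq within a genotype was itself unequal. The highest of the 3 Het animals exceeded the lowest by 25.4-fold, measured on normalized count + 1, and 2.99% of the 8532 rows with a mean of at least 50 had a ratio as large among the Het animals (255 rows, median ratio 1.45). In WT the ratio was 2.67, which 21.3% of rows reached, and in KO it was 1.10, which 93.4% reached. In these animals the KO values of Ywhaq differed less than those of most genes, and the Het values more. Choosing a gene by its difference between KO and WT can favour a narrow spread within a genotype. The KO ratio is therefore a description only.

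The promoter of Ywhaq is shown because an antisense gene that covers it was counted separately. The RefSeq promoter window of 300 bases (250 before the start and 50 after) lies at chr12:21417387-21417686 on the minus strand (GRCm38.p6).
Ywhaq promoter: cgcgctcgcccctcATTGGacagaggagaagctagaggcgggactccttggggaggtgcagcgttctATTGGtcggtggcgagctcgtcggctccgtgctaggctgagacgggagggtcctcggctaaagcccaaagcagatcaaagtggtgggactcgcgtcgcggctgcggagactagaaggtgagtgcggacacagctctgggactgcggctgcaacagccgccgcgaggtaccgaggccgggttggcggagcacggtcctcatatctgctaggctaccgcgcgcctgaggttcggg
Capitals mark matches to the CCAAT box, searched as CCAAT on both strands, which start 236 and 183 bases before the RefSeq start at 21417436. The 5′ end annotated by GENCODE, 21417637, lies 201 bases further upstream, so that the first match starts 35 bases before it and the second lies inside the annotated gene. Of 32851 RefSeq promoters of this length 37.4% held at least 1 such match, 35.7% held a GC box (GGGCGG) and 20.8% held TGACG. Neither of the latter was found in this window, which is 65.3% G and C against a median of 52.7% over all promoters. A promoter was matched for 5 of the 7 members, and Ywhab and Ywhaz were not matched.

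Gm4419, an antisense noncoding gene on the plus strand of chromosome 12 from 21417323 to 21421064, covers this whole window and shares 315 bases with the 5′ end of Ywhaq. It came to 97.8, 66.6 and 88.8 normalized counts in WT testes, to 91.6, 68.9 and 106.9 in Het testes and to 78.2, 74.5 and 89.4 in KO testes. The genotypes overlapped, so the wide range of Ywhaq was not seen in its antisense neighbour. Whether the counting used strand is not given in the sources used here, so reads from the shared bases cannot be told apart.

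Ywhae encodes 14-3-3 epsilon, the most divergent member in the sequences above, and was the most abundant. The gene (ENSMUSG00000020849, plus strand of chromosome 11 from 75732869 to 75765845) came to 2262, 2515 and 2479 normalized counts in WT testes, to 1998, 2315 and 1850 in Het testes and to 2277, 1859 and 1939 in KO testes. KO replicate 1 lay inside the WT range and the other two KO animals below it. Against WT, KO testes had a log2 fold change of -0.26 (SE 0.15, 95% interval -0.63 to 0.11, limma adjusted p = 0.635). As a ratio, KO had 0.835 times the WT level, with an interval from 0.647 to 1.08.

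Ywhab, the beta paralog, is a classical partner of Raf kinases. The gene (ENSMUSG00000018326, plus strand of chromosome 2 from 163994960 to 164018588) came to 578.2, 456.3 and 473.1 normalized counts in WT testes, to 529.1, 448.8 and 456.1 in Het testes and to 411.4, 593.0 and 468.3 in KO testes. The KO animals spanned the whole WT range, with a log2 fold change of -0.04 (SE 0.21, 95% interval -0.56 to 0.47, limma adjusted p = 0.948). The interval allows a KO level of up to 1.39 times that of WT.

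Ywhaz, the zeta paralog, shares the most coding bases with Ywhaq. The gene (ENSMUSG00000022285, minus strand of chromosome 15 from 36770770 to 36796929) came to 272.4, 312.6 and 365.9 normalized counts in WT testes, to 250.4, 622.0 and 321.7 in Het testes and to 286.0, 240.9 and 246.7 in KO testes. In 2 of 3 KO animals it was lower than in any WT animal, and Het replicate 2, the animal with the highest Ywhaq, also had the highest Ywhaz. Against WT, KO testes had a log2 fold change of -0.29 (SE 0.20, 95% interval -0.77 to 0.19, limma adjusted p = 0.643), a KO level of at most 1.14 times WT within the interval.

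Ywhag and Ywhah, the gamma and eta paralogs, both lie on chromosome 5 and have 2 exons each. Ywhag (ENSMUSG00000051391, minus strand of chromosome 5 from 135908409 to 135934616) came to 141.1, 113.8 and 115.9 normalized counts in WT testes, to 151.2, 119.2 and 135.5 in Het testes and to 119.4, 148.0 and 127.8 in KO testes. Ywhah (ENSMUSG00000018965, plus strand of chromosome 5 from 33018816 to 33027966) came to 107.7, 85.9 and 82.1 normalized counts in WT testes, to 116.2, 77.3 and 76.2 in Het testes and to 84.2, 131.6 and 102.8 in KO testes. For both genes the mean was higher in KO than in WT, within overlapping values. The log2 fold change of Ywhag was 0.09 (95% interval -0.40 to 0.59, limma adjusted p = 0.863) and that of Ywhah 0.19 (95% interval -0.41 to 0.80, limma adjusted p = 0.760). These intervals reach a KO level of 1.502 times WT for Ywhag and 1.74 times for Ywhah. Without KO replicate 2, which had the highest KO value of both genes, the log2 fold changes were 0.0058 for Ywhag and 0.028 for Ywhah.

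Sfn encodes 14-3-3 sigma, an epithelial member induced by p53. The gene (ENSMUSG00000047281, minus strand of chromosome 4 from 133600556 to 133602168) has a single exon and came to 16.1, 2.89 and 6.76 normalized counts in WT testes, to 2.83, 5.59 and 14.8 in Het testes and to 5.15, 4.84 and 6.26 in KO testes. Its lowest values were 3 reads, the genotypes overlapped, and it failed the filter of at least 10 normalized counts in at least 3 animals, so it was not tested.

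Of the 5 paralogs tested beside Ywhaq, 0 passed the cutoffs in KO against WT, which were an adjusted p below 0.05 together with a log2 fold change above 1.5 up or down, against 0.0352% of the 14223 rows tested. None of the 5 had an unadjusted p-value under 0.05 (8.07% of rows) and none was without overlap between KO and WT animals (19.9% of rows). In limma fits of Het against WT the counts were again 0, against 0% of 14216 rows past the cutoffs, 3.34% with an unadjusted p-value under 0.05 and 13.3% without overlap. In KO against Het they were 0 against 0.0558% of 14343 rows past the cutoffs and 3.56% with an unadjusted p-value under 0.05. With edgeR's quasi-likelihood test and with DESeq2's Wald test on the recovered reads, 0 of the 5 passed the cutoffs or had an unadjusted p-value under 0.05 in any of the 3 comparisons. Over all rows tested the median log2 fold change was 0.02 in KO against WT, and the paralogs ranged from -0.29 to 0.19.

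Between Het and WT the 5 paralogs showed log2 fold changes from -0.24 for Ywhae (95% interval -0.61 to 0.13, limma adjusted p = 0.779) to 0.23 for Ywhaz (95% interval -0.66 to 1.12, limma adjusted p = 0.851). Without Het replicate 2, the value for Ywhaz was -0.15. In KO against Het they ran from -0.52 for Ywhaz (95% interval -1.35 to 0.32, limma adjusted p = 0.973) to 0.24 for Ywhah (95% interval -0.40 to 0.88, limma adjusted p = 0.973). The value for Ywhaz was -0.14 without Het replicate 2 and -0.80 without Het replicate 1. Both comparisons with WT share the WT animals, and those with Het share the Het animals, so the values of a gene in different comparisons are not independent.

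**Figure D2:**
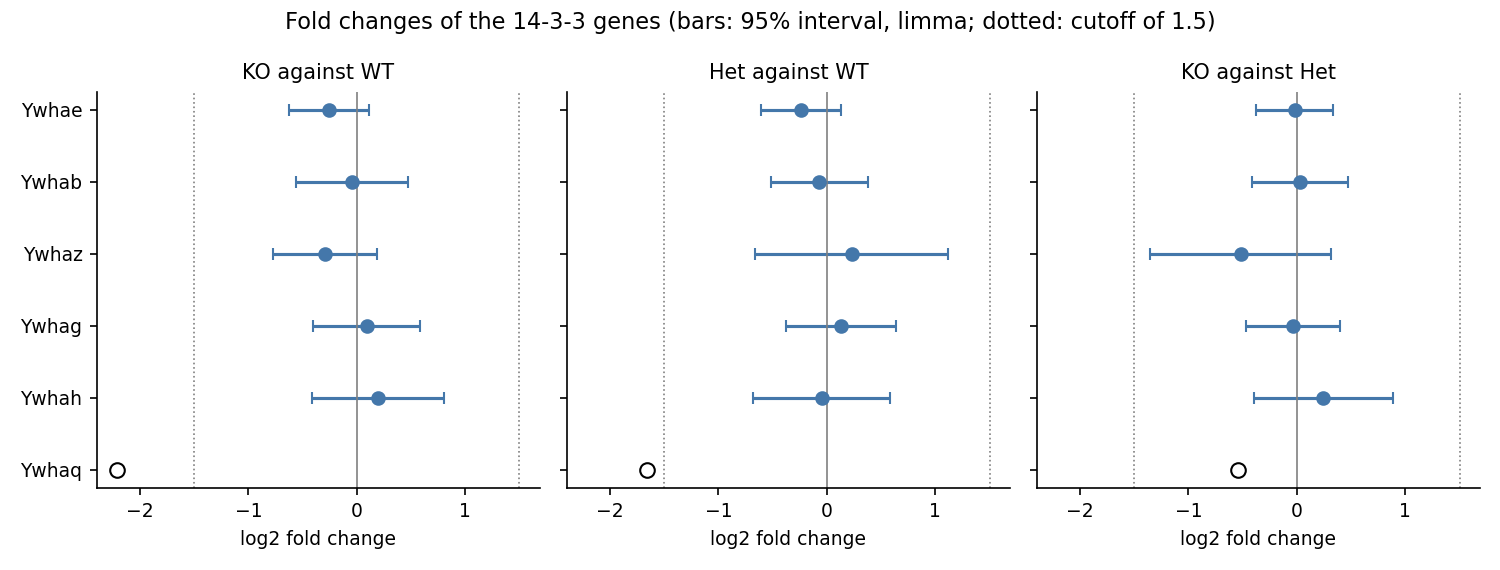
Log2 fold changes of the members in the 3 comparisons, with points for the limma estimate, bars for its 95% interval and dotted lines at the cutoff of 1.5. All 15 intervals of the tested paralogs include 0, while Ywhaq (open circles, no test) lies at -2.21, -1.66 and -0.55.

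Since each QuantSeq read stands for a transcript end, counts were not divided by length, and the order of the genes refers to normalized counts on that scale. In WT the order of the means was Ywhae, Ywhaq, Ywhab, Ywhaz, Ywhag, Ywhah and Sfn. Ywhaq and Ywhab overlapped there, with Ywhaq higher in 2 of 3 animals, and all other neighbours were apart in 3 of 3 animals with no overlap. In KO the order was Ywhae, Ywhab, Ywhaz, Ywhag, Ywhaq, Ywhah and Sfn, and Ywhaq (108.4) and Ywhah (106.2) overlapped. By these means Ywhaq moved from the second to the fifth place among the 7 genes, while the order of the other 6 was the same in both genotypes. In WT replicate 1, however, Ywhaq (269.9) lay below both Ywhab (578.2) and Ywhaz (272.4). Ywhaq had been chosen for its difference between KO and WT, so its lower place in KO was to be foreseen and is no evidence.

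Added over the 7 genes, the family came to 3647, 4145 and 4244 normalized counts in WT testes, to 3086, 4571 and 2960 in Het testes and to 3285, 3090 and 3002 in KO testes. Ywhaq made up 7.40% to 17.0% of the sum in WT, 1.23%, 21.5% and 3.58% in the Het animals and 3.11% to 3.69% in KO. Ywhae made up 50.6% to 69.3% over all animals. Both the family sum and the share of Ywhaq were lower in each KO animal than in each WT animal. Both contain Ywhaq, which had been chosen by its difference between these animals, so this separation was in part built in. Of all rows tested, 19.9% were without overlap between KO and WT animals.

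The other 6 genes summed to 3378, 3486 and 3523 in WT and to 3183, 2978 and 2891 in KO. On this scale the KO animals lay below the WT animals, beside 19.9% of single rows without overlap in either direction. From WT to KO the mean of Ywhaq fell by 441.6 normalized counts and the sum of the other 6 fell by 445.0, so that the family fell by 886.6. Without Ywhae, the other genes fell by 51.5. No rise of the other members that would make up for the lower Ywhaq count was seen in these means, which were not tested.

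The direction of the sum of the other 6 depended on the scale. When each animal was scaled to all its counted reads instead of the deposited size factor, the other 6 genes had a mean of 851.2 CPM (counts scaled to 1 fixed total per animal) in WT, 863.8 in Het and 854.6 in KO, with ranges of 808.2 to 891.6 in WT and 790.4 to 909.0 in KO. On that scale the whole family had 872.7 to 1074 CPM in WT and 820.7 to 943.3 in KO, which overlap, and Ywhaq alone had 64.6 to 182.5 in WT and 27.8 to 34.3 in KO. The summed normalized counts of all genes were 3951733 to 4179275 in WT and 3275826 to 3682423 in KO, and this scaling moved the median log2 fold change of all rows from 0.02 to 0.22. Relative to these medians the paralogs were at or below the typical row on both scales, apart from Ywhag and Ywhah.

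**Figure D3:**
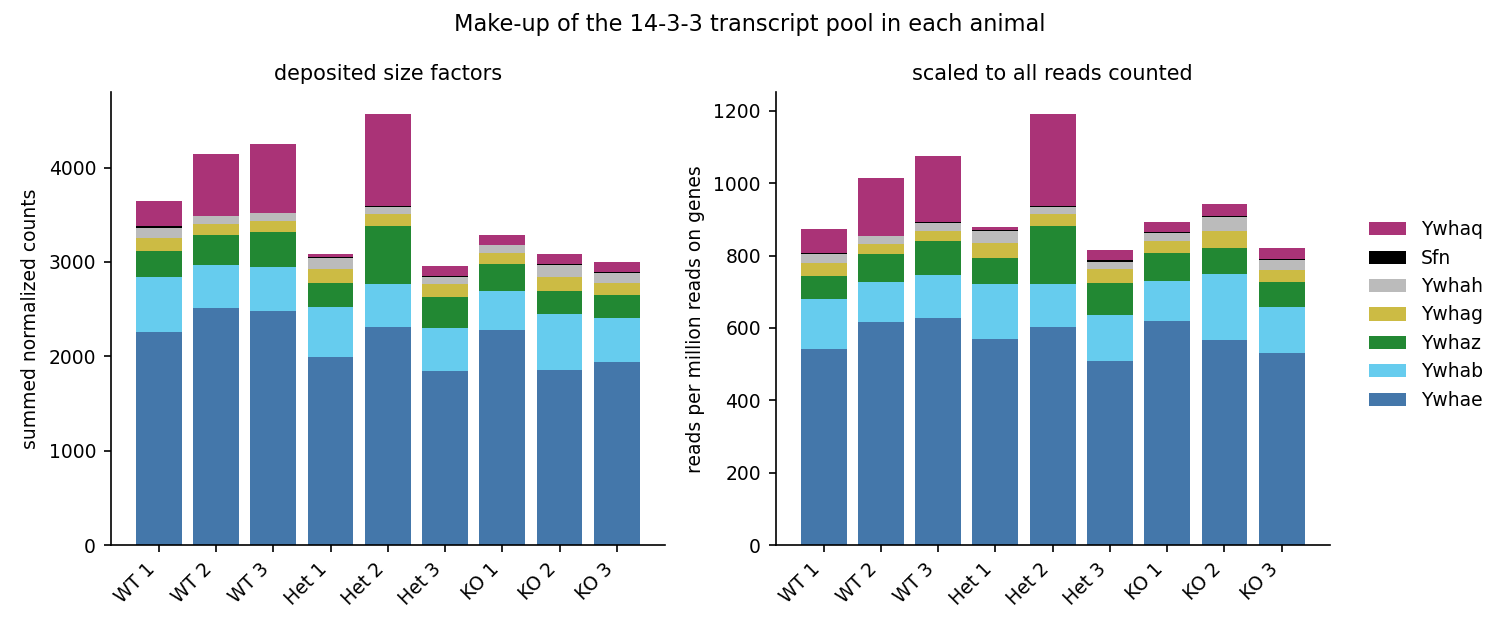
Stacked bars of the 7 genes in each animal, from 0, as summed normalized counts with the deposited size factors (left) and as CPM of the reads on genes (right). The Ywhaq segment at the top is 3.11% to 3.69% of each KO bar, and the rest of the bars lies lower in KO than in WT on the left axis only.

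Genes with a pattern like that of Ywhaq were taken by Pearson's r of log2(normalized count + 1) over the 9 animals, among 14859 rows. The 5 highest were Brpf3 and Clpb (both r = 0.98) and Copa, Nploc4 and BC051142 (each r = 0.96). They share the libraries and the size factors with Ywhaq, and r is a description. The study also named Copa among its genes lower in KO, from these same animals, so its likeness to Ywhaq is not independent evidence. By qRT-PCR on testis RNA the study reported Copa lower in KO as well, without stating whether the same animals were used. Brpf3, a scaffold of a histone acetyltransferase complex, came to 71.8, 237.3 and 310.9 normalized counts in WT testes, to 14.2, 310.1 and 48.7 in Het testes and to 51.5, 37.7 and 41.1 in KO testes. Copa, a subunit of the COPI vesicle coat, came to 214.2, 364.7 and 448.0 normalized counts in WT testes, to 20.8, 401.3 and 27.5 in Het testes and to 47.2, 30.0 and 36.6 in KO testes. In both, as in Ywhaq, Het replicate 2 was at the WT level or above and Het replicate 1 was lowest.

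Clpb, a mitochondrial disaggregase, came to 991.7, 3402 and 2860 normalized counts in WT testes, to 185.2, 2886 and 485.7 in Het testes and to 456.1, 318.3 and 508.5 in KO testes. Nploc4, a cofactor of the p97 segregase, varied less, from 283.5 to 323.2 in WT, from 133.2 to 351.1 in Het and from 182.3 to 237.0 in KO. Among the members, r with Ywhaq was 0.77 for Ywhae and 0.74 for Ywhaz (rank 398 and 510 of 14859). It was -0.24 for Ywhab, -0.54 for Ywhah and -0.73 for Ywhag (rank 10556, 13308 and 14396). These values were not tested. For Ywhae, the 5 genes most alike were Rabl3 (r = 0.97), Dis3l, Iqcd, Inpp5a and Ing4.

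**Figure D4:**
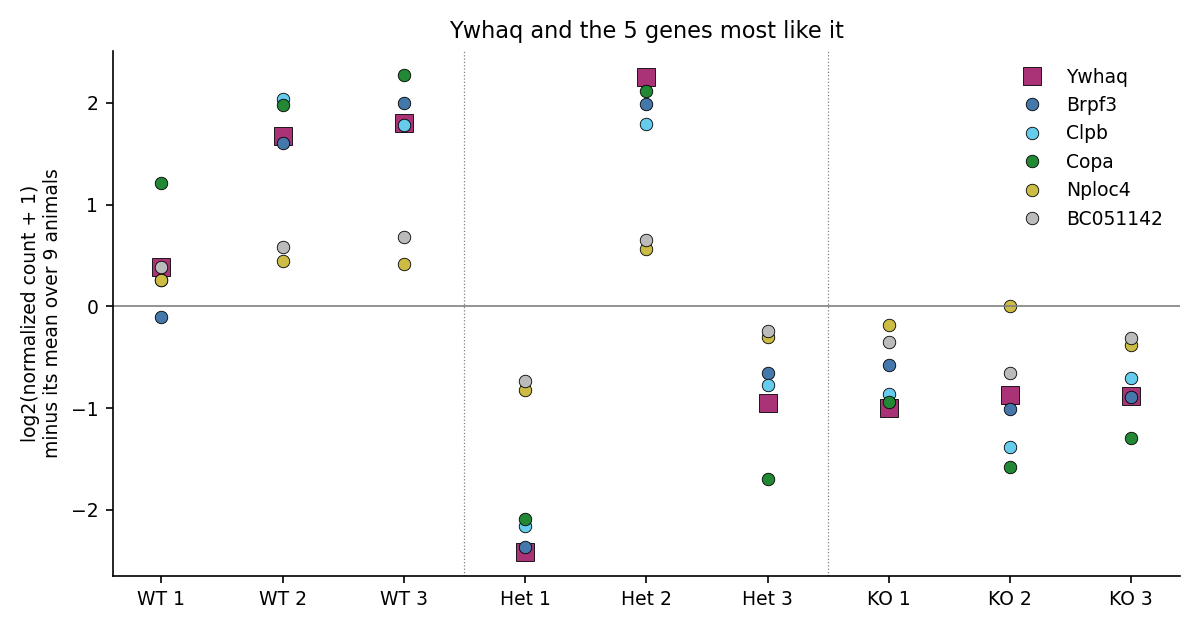
Log2(normalized count + 1) minus its mean over the 9 animals for Ywhaq (squares) and the 5 genes most like it (circles), by animal. The genes were chosen for this likeness (r of 0.96 to 0.98), and Het replicate 2 stands with the WT animals while Het replicates 1 and 3 stand near or below the KO animals.

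The other genes of the pathway were 57 kinases and partners of 14-3-3 proteins in 4 lists, of which 55 were in the table and 49 were tested. Kinases that phosphorylate 14-3-3 binding motifs made up the first list, clients in signalling and survival the second, clients in the cell cycle and transcription the third, and clients in the cytoskeleton and sperm the fourth. In KO against WT 0 of 49 passed the cutoffs by limma (0.0352% of all rows). By the same test 2 higher and 2 lower genes had an unadjusted p-value under 0.05 (8.07% of all rows). No overlap between genotypes was found for 3 higher and 4 lower genes (19.9% of all rows). The higher genes of both counts include Cfl1, which the study had chosen on these same animals. Of the 49 genes, 24 had a higher and 25 a lower mean log2 level in KO, while 51.4% of all rows were higher. Their median log2 fold change was -0.02 beside 0.02 over all rows. These shares were near or below those of all rows.

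Among 15 kinases tested in KO against WT, 10 were higher and 5 lower (51.4% of all rows were higher), with a median of 0.04. Rps6ka3, the ribosomal S6 kinase RSK2, had 14.9, 23.1 and 36.7 normalized counts in WT and 43.0, 47.4 and 53.6 in KO, with a log2 fold change of 1.003 (SE 0.37, limma adjusted p = 0.610). Its Het animals (48.2, 40.0 and 43.4) lay with the KO animals. Pim1, a survival kinase, had 455.6, 350.2 and 538.8 in WT and 257.7, 272.8 and 283.3 in KO, a log2 fold change of -0.70 (limma adjusted p = 0.610). Its relative Pim3 had the opposite sign, 90.4, 152.4 and 170.9 in WT and 182.1, 257.3 and 191.3 in KO, at 0.64 (limma adjusted p = 0.615).

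Of 13 signalling and survival clients 7 were higher and 6 lower (median 0.03), and of 13 cell cycle and transcription clients 5 were higher and 8 lower (median -0.14). Without overlap in these lists were Tbc1d1, a Rab GTPase-activating protein (132.4 ± 42.9 in WT and 97.4 ± 9.19 in KO, SD, n = 3, log2 fold change -0.40, limma adjusted p = 0.643), and Wee1, the mitotic inhibitor kinase (107.9 ± 3.63 and 97.6 ± 5.14, log2 fold change -0.14, limma adjusted p = 0.753). Neither difference passed the test.

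Of 8 cytoskeletal and sperm clients 2 were higher and 6 lower (median -0.28). Cfl1, the actin-severing protein cofilin 1, came to 19.8, 13.5 and 12.6 normalized counts in WT testes, to 9.45, 27.9 and 22.2 in Het testes and to 137.4, 90.0 and 160.0 in KO testes. It too had been chosen by the study on these animals, so its log2 fold change of 2.98 is not independent evidence. Apart from these libraries, the study reported higher Cfl1 in KO by qRT-PCR. By immunoblot it reported more cofilin 1 protein in KO and already in Het testes. Arhgef2, a microtubule-bound exchange factor for RhoA, had 227.8, 245.0 and 320.6 in WT and 174.4, 118.0 and 159.1 in KO, a log2 fold change of -0.81 (SE 0.25, limma adjusted p = 0.610). Cfl1 and Arhgef2 were the 2 genes of this list whose KO and WT animals did not overlap.

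In Het against WT 0 of the 49 genes passed the cutoffs (0% of all rows), and 29 were higher and 20 lower, with a median log2 fold change of 0.04. Over all rows 50.5% were higher, with a median of 0.0069. An unadjusted p-value under 0.05 was found for 2 higher genes (3.34% of all rows in either direction) and no overlap for 5 higher genes (13.3% of all rows), shares near or below those of all rows. The 5 were the kinases Prkaca, Akt1, Lats1, Pim3 and Rps6ka3, named after their values were seen. In KO against Het 0 passed (0.0558% of all rows), with 16 higher and 33 lower and a median of -0.07. Over all rows 49.67% were higher, with a median of -0.0027, and the split of the 49 genes was not tested. By limma, 1 higher and 1 lower gene had an unadjusted p-value under 0.05 (3.56% of all rows). DESeq2's Wald test placed 1 of the genes, Cfl1, past the cutoffs in KO against WT and in KO against Het, and limma did so in KO against WT without WT replicate 1. Since Cfl1 had been chosen by the study on these animals, these calls are not independent evidence.

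**Figure D5:**
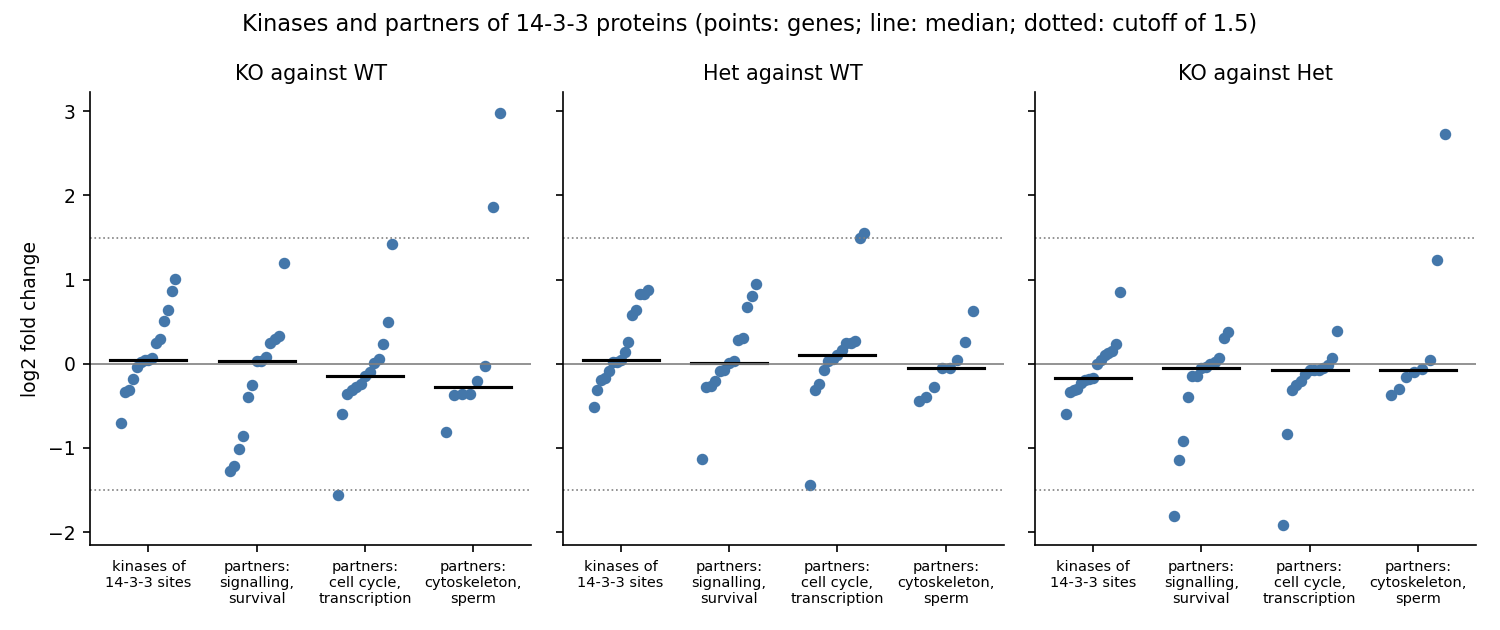
Log2 fold changes of the 49 tested kinases and partners by list in the 3 comparisons, with a point for each gene, a line at the list's median and dotted lines at the cutoff of 1.5. The medians of the lists in KO against WT lie between -0.28 and 0.04, and the highest point is Cfl1 at 2.98.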

How the data were processed

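Testis RNA of 9 mice was measured with QuantSeq 3′ libraries. Per the submitters' processing notes and the study's methods, reads were trimmed with Trim Galore 0.4.5, aligned with HISAT2 2.1 to GRCm38 and assembled and counted with StringTie 1.3.3, and DESeq2 was used. The authors deposited a signal value per gene and animal, a count divided by a size factor. In each animal 100% of values were whole multiples of 1 read (tolerance 0.001), so reads were recovered. No column of values was left unassigned (0 columns).

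Genotypes were taken from the labels and compared in pairs with limma 3.58.1 (eBayes with a trend, two-sided, R 4.3.3) on log2(value + 1), with Benjamini-Hochberg adjustment over all rows with at least 10 in at least 3 of the 6 animals. Whether the animals were littermates is not given, and p-values measure the spread between the 3 animals of a genotype. The functions were tested on simulated data. The members and gene lists were chosen with earlier results of these data known. Named genes were all members, the 5 rows most correlated with Ywhaq and with Ywhae, and up to 3 genes per list with the largest change without overlap between KO and WT.

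Alternatives were edgeR 4.0.16 and DESeq2 1.42.0 on the recovered reads, TMM factors, pseudocounts of 0.5 and 5, no filter or one at 50, all 9 animals in 1 fit, rows of one symbol summed, the replicate number as a block, no fold change cutoff, and each animal left out. Scaling to the reads counted per library was added after seeing the data. Coding sequences and coordinates were from GENCODE M21, aligned with MAFFT, and promoters from RefSeq. Python 3.11.15, pandas 2.3.3 and matplotlib 3.10.9 were used for tables and figures. The columns other than values and gene annotation, and protein sequences, were not used here.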

Additional observations from a re-analysis of the deposited data

How the results depend on the processing

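The number of paralogs past the cutoffs was 0 in each comparison under every alternative. With an unadjusted p-value under 0.05 it was also 0, except in KO against Het, where it was 0 to 1 over the fits that leave out 1 animal. The 1 was Ywhaz without Het replicate 1 (limma unadjusted p = 0.0488, adjusted p at least 0.821). Over all alternatives the lowest adjusted p of a tested paralog was 0.565 in KO against WT. With 3 animals per genotype, and a median half-width of 0.86 (log2) for the 95% interval of a row in KO against WT, changes smaller than the intervals given above were not detectable.

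The partner and kinase genes past the cutoffs rose from 0 to 1 with the DESeq2 Wald test in KO against WT and in KO against Het, and were 0 to 1 with 1 animal left out in KO against WT. The 1 was Cfl1 each time, which the study had chosen on these animals. The count over all rows in KO against WT was 5, and 96 with DESeq2, 2 with the filter at 50, 3 with all 9 animals in 1 fit and 0 to 49 with 1 animal left out (leaving out WT replicate 1 gave 49, KO replicate 1 gave 11, KO replicate 3 gave 1, and each of the other 3 animals gave 0). In Het against WT it was 0, and 31 with DESeq2, 1 with TMM factors, 2 with a pseudocount of 5, 3 with no filter, 1 with the filter at 50, 3 with all 9 animals and 0 to 3 with 1 animal left out (3 without Het replicate 2). In KO against Het it was 8, and 38 with DESeq2, 4 with the filter at 50, 4 with all 9 animals and 0 to 39 with 1 animal left out (39 without Het replicate 2, at most 1 without any other). The cause was not tested.

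Replicate numbers did not pair the animals, since animals with the same number had correlated deviations of -0.14 to 0.19. With the replicate number as a block, the count over all rows was 0 in KO against WT and 0 in KO against Het, and it changed no call of a paralog.

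Some small differences changed sign. For Ywhab they were 0.16 (KO against WT) and 0.087 (Het against WT) when scaled to the reads per library, and with 1 animal left out -0.19 to 0.076 in KO against WT (0.06 without WT replicate 1), -0.14 to 0.037 in Het against WT and -0.12 to 0.14 in KO against Het (-0.02 without Het replicate 2, -0.0061 without Het replicate 3). For Ywhah in Het against WT they were 0.10 per library and -0.25 to 0.070 with 1 animal left out (0.04 and 0.05 without Het replicate 2 and 3). For Ywhaz in Het against WT the values were -0.15 to 0.51 with 1 animal left out (-0.15 without Het replicate 2). In KO against Het, Ywhag was 0.011 per library and -0.12 to 0.046 with 1 animal left out (0.03 without KO replicate 1), and Ywhae was 0.00069 with edgeR, 0.028 per library and -0.11 to 0.069 with 1 animal left out (0.04 without KO replicate 2, 0.0086 without KO replicate 3). Ywhaq in KO against Het was -1.57 to 0.76 with 1 animal left out (0.76 without Het replicate 2).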
